A study of Mus musculus with 38 samples.

Results

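The clustered protocadherins are 58 genes that lie side by side on mouse chromosome 18: 14 Pcdha, 22 Pcdhb and 22 Pcdhg genes, in that order from left to right. The chromatin over them was described in liver from every peak that overlapped by 1 bp or more the 1200 kb window chr18:36850000-38050000 of genome build mm9. Of 384017 autosomal peaks in 12 lists, 207 overlapped the window. The lists are histone chromatin immunoprecipitation sequencing (ChIP-seq) peaks for 6 marks in livers of male and of female mice of the outbred CD-1 stock, taken at 8 weeks, with no treatment in the labels. Promoters and enhancers carry H3K4me1, H3K4me3 and H3K27ac, transcribed gene bodies carry H3K36me3, and silent chromatin carries H3K27me3 or H3K9me3. For these marks the males gave 4 libraries each for H3K4me1 and H3K4me3, 3 each for H3K27ac and H3K27me3, and 2 each for H3K36me3 and H3K9me3. The females gave 3 libraries each for H3K4me1, H3K4me3, H3K27ac and H3K27me3, and 2 each for H3K36me3 and H3K9me3.

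Clustered protocadherins are cell surface proteins with cadherin repeats that bind like to like between cells. They are known from the nervous system, where each neuron uses its own small set of them and so tells its own branches from those of other neurons. In the Pcdha and Pcdhg clusters each variable first exon has its own promoter and is spliced to exons shared by the cluster, whereas each Pcdhb gene stands by itself. In mouse neurons the choice among these promoters is known to depend on CTCF and cohesin, which fold the DNA between promoter and enhancer, and on silencing by DNA methylation (Dnmt3b), H3K9 methylation (Setdb1) and Smchd1. H3K27me3 is the mark of the Polycomb complex PRC2, and H3K9me3 is the mark of constitutive heterochromatin.

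All libraries of a mark and sex had the same peak file, so each list was 1 pooled set with no spread between animals, and no test between the sexes or regions was possible beyond the authors' own calls. No library could be left out, and bulk liver cannot tell a mark held by few cells from a weak mark in all cells. Peaks were not placed at single genes, because no mm9 annotation was used. In the gene order of RefSeq for GRCm38.p6, used for order only, Tmco6, Ndufa2, Ik, Wdr55, Dnd1, Hars, Hars2 and Zmat2 precede Pcdha1, Slc25a2 and Taf7 (a subunit of the general transcription factor TFIID) lie between Pcdhb22 and Pcdhga1, and Diaph1, Hdac3, Rell2, Fchsd1 and Arap3 follow Pcdhgc5. To describe the window it was cut, after the peaks had been seen, into a left block of 115 kb (chr18:36850000-36964999), a left stretch of 830 kb (chr18:36965000-37794999), a central site of 11 kb (chr18:37795000-37805999), a right stretch of 189 kb (chr18:37806000-37994999) and a right end of 55 kb (chr18:37995000-38049999).

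As a check of the tissue, promoters were placed on mm9 wherever a read of the control library matched a RefSeq promoter sequence, which placed 12095 genes. Of 10 hepatocyte markers 7 were placed (among them Alb, albumin, and Apob, an apolipoprotein), and 7 of 7 had H3K4me3 and H3K27ac in each sex. Of 8 neuron markers 2 were placed, Syt1 and Elavl4, and both lacked H3K4me3 and H3K27ac and lay in H3K27me3 islands in both sexes. H3K9me3 was at Syt1 in both lists and at Elavl4 in the female list. Over all placed genes H3K4me3 covered 44.6% of promoters in the male list and 45.4% in the female list, and H3K27me3 covered 28.4% in the male list and 30.1% in the female list. H3K27ac covered 48.0% of promoters in males and 46.7% in females, and H3K9me3 covered 7.96% and 7.24%. Cyp2e1, a cytochrome P450 of hepatocytes, also had H3K27me3 in both lists. Among markers of other liver cells, Ptprc (leukocytes) had H3K27ac without H3K4me3 in both lists, Stab2 (endothelium) had H3K27ac in both lists and H3K4me3 in the male list, and Lrat (stellate cells) and Epcam (bile ducts) had H3K4me3 without H3K27ac in both lists. H3K27me3 was at Stab2, Lrat and Epcam in both lists and at Ptprc in the female list. Clec4f (Kupffer cells) had H3K27me3 and H3K9me3 and no active mark in either list.

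The window was rich in H3K9me3 islands. H3K9me3 covered 34.3% of the window in the male list and 31.4% in the female list. The same mark covered 7.20% and 5.87% of the left and right flanks of 1200 kb in the male list, and 0.933% and 1.57% of them in the female list. Over chromosome 18 it covered 5.04% in the male list and 2.75% in the female list, and over the autosomes 7.30% and 9.23%. The window held 24 of the 270 male and 24 of the 206 female H3K9me3 islands of chromosome 18, although it makes up 1.37% of the chromosome. By fold over control, the authors' own value for each island, 17 of the 24 male and 17 of the 24 female islands ranked in the best 25% of their whole list. The highest folds were 4.76 in males, at chr18:37126400-37130399, and 4.50 in females, at chr18:37730400-37734399.

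H3K27me3 covered 31.8% of the window in the male list and 21.4% in the female list. These values lie between those of the flanks for males (35.1% on the left and 24.3% on the right) and below both for females (34.4% and 26.8%). Chromosome 18 as a whole had 16.5% in the male list and 10.3% in the female list, and the autosomes had 23.4% and 24.0%.

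The active marks did not follow 1 pattern. H3K27ac covered 2.71% of the window in the male list and 2.53% in the female list, against 12.8% and 20.9% of the left and right flanks in males and 12.1% and 21.6% in females. Chromosome 18 had 4.68% of its length in H3K27ac in the male list and 4.04% in the female list. H3K36me3 covered 9.78% of the window in the male list and 9.15% in the female list, against 12.6% and 12.9% of chromosome 18 and between 16.3% and 26.6% of the flanks in both lists. H3K4me1 covered 3.09% in males and 3.22% in females, against 5.41% and 5.98% of chromosome 18 and between 17.6% and 27.5% of the flanks. H3K4me3 covered 2.26% in males and 1.95% in females, which lies between chromosome 18 at 1.11% and 1.05% and the flanks, at 4.25% and 4.27% in males and 4.49% and 4.52% in females. The window had 15 male and 13.3 female H3K4me3 peaks per Mb, against 5.23 and 5.67 on chromosome 18. Both flanks had more, with 21.7 (left) and 18.3 (right) per Mb in the male list and 22.5 and 20.8 in the female list.

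**Figure D1:**
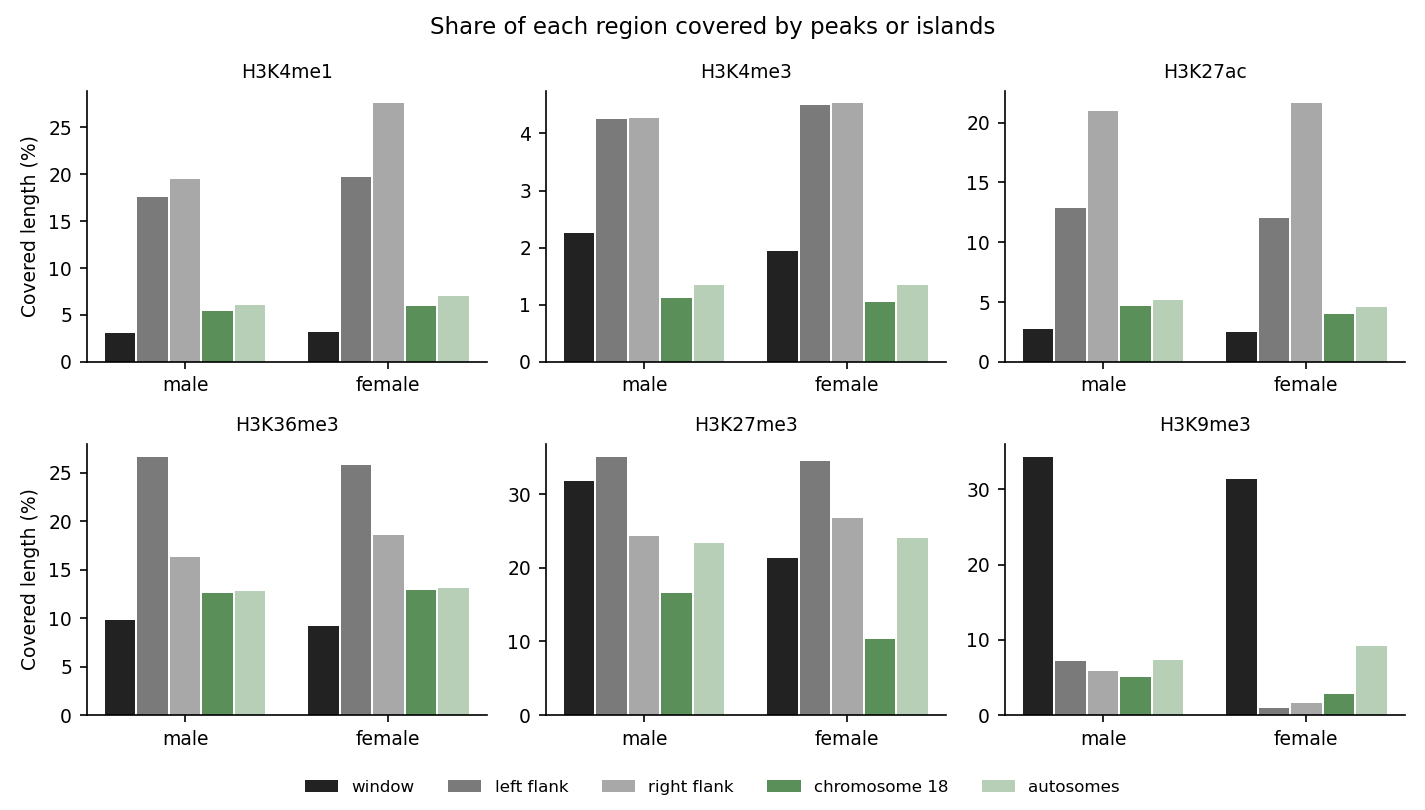
Share of length covered by peaks or islands (%, vertical axis) in the window, its left and right flanks of 1200 kb, chromosome 18 and all autosomes, for each mark, with the male list left and the female list right. H3K9me3 covers 34.3% (male) and 31.4% (female) of the window, above every other region drawn for that mark.

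Control reads were thinner in the window than over the autosomes. The male IgG library, the only control used here, had 3.84 reads per kb in the window against 4.48 per kb over the autosomes. It had 3.54 reads per kb in the left stretch and 4.06 in the right stretch. The bases of these reads were 37.1% G or C in the left stretch and 43.7% in the left block. Protocadherin genes resemble each other in sequence, and the handling of reads with several matches was not given in the sources used here. What part read density or sequence likeness had in the peak counts of the window was not tested.

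Most H3K27ac and H3K36me3 of the window lay at its edges. The left block held 10 of the 13 male and 10 of the 14 female H3K27ac peaks, and the right end held 2 in each list. Of the H3K4me3 peaks, 8 of 18 in males and 7 of 16 in females lay in the left block, and 1 in males and 0 in females at the right end. All 8 male and all 7 female H3K4me3 peaks of the left block overlapped H3K27ac and H3K4me1. Over the whole lists 88.5% of male and 81.6% of female H3K4me3 peaks overlapped H3K27ac, and 92.4% and 90.0% overlapped H3K4me1, so these counts are near the background. H3K36me3 covered 46.8% of the left block in the male list and 44.7% in the female list, and H3K9me3 was absent from it in both. The block has 1 H3K27me3 island in each list, chr18:36881200-36890399 in males and chr18:36876400-36888799 in females, and an H3K4me3 peak lay within it in both. The strongest H3K27ac of the block was at chr18:36902112-36905779 in males, with 32.9-fold enrichment, and at chr18:36902500-36905763 in females, with 20.4-fold. At the right end an H3K27ac peak stood at chr18:38043009-38045424 in males, with 28.6-fold enrichment, and at chr18:38043003-38045467 in females, with 27.4-fold. The right end was covered by H3K36me3 over 86.2% in the male list and 85.5% in the female list. Its islands are the widest of the mark in the window: chr18:38001400-38042599 and chr18:38043800-38068199 in males, and chr18:38003000-38077799, of 74.8 kb, in females. The next widest H3K36me3 islands lay in the left block, at chr18:36921000-36937199 in males and at chr18:36920000-36936999 and chr18:36905200-36918999 in females.

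**Figure D2:**
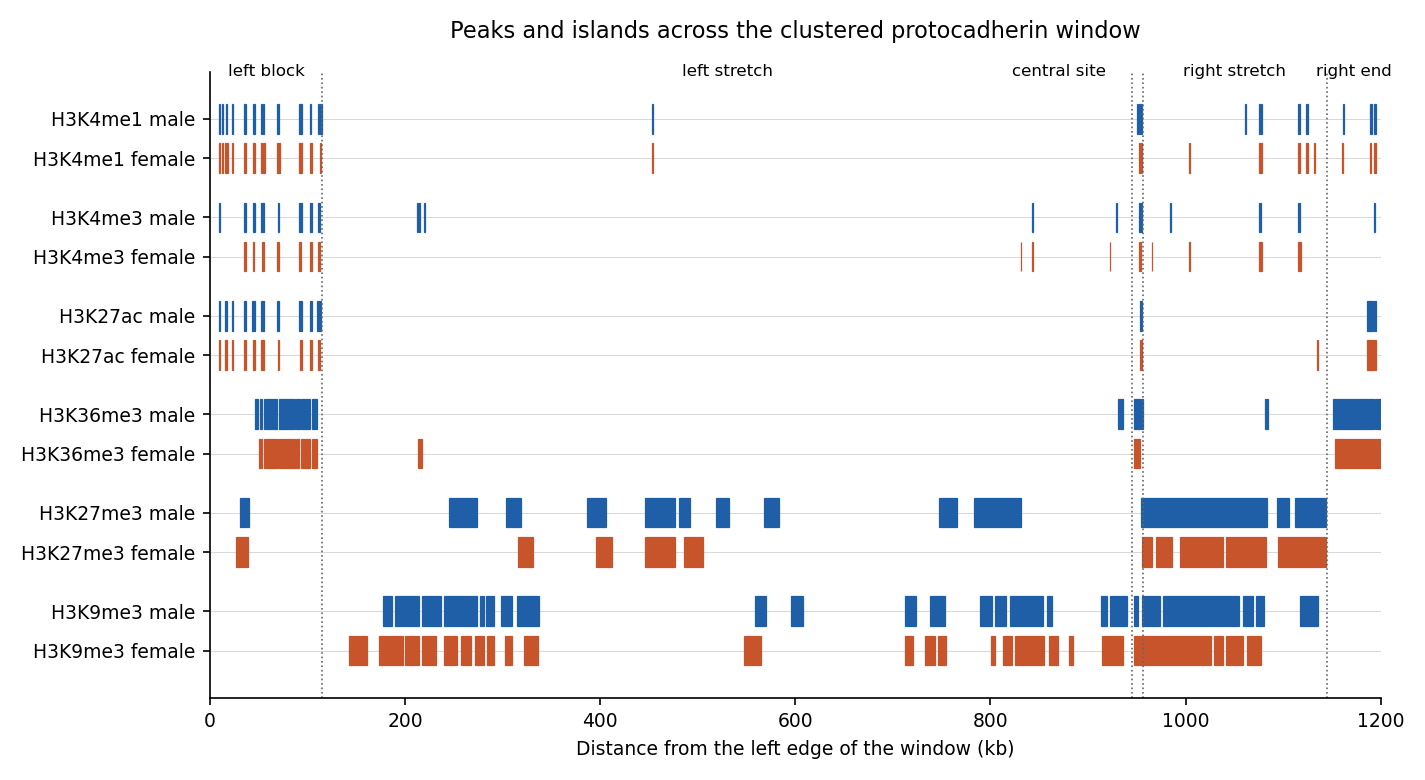
Positions of all peaks and islands by distance from the left edge of the window (kb, horizontal axis), 1 row per mark and sex, males above females and widths to scale with a thin outline that keeps narrow peaks visible. Dotted lines divide the left block, left stretch, central site, right stretch and right end. H3K27ac has no peak between the left block and the central site, a gap of 839.1 kb in males and 839.9 kb in females.

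Between the left block and the central site H3K27ac was absent. It left a gap of 839.1 kb in the male list and 839.9 kb in the female list (chr18:36963692-37802753 and chr18:36963004-37802887). Among the gaps between neighbouring H3K27ac peaks on the autosomes, 449 of 40884 in the male list and 476 of 38287 in the female list were longer, and the median gap was 8.61 kb and 8.79 kb. H3K4me1 had 1 peak in the left stretch in each list, chr18:37302755-37304288 in males and chr18:37302867-37304290 in females, and it lay inside an H3K27me3 island in both. H3K36me3 had 1 island there in each list, at different places. The male island, chr18:37781200-37786199, had 114 reads and lay wholly in H3K9me3, and the female island, chr18:37062800-37067799, had 118 reads.

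In the right stretch H3K4me1 had 5 peaks in the male list and 6 in the female list. All 5 and all 6 lay over their whole length in H3K27me3, which covered 90.6% of that stretch in males and 84.7% in females. The strongest were chr18:37965310-37967353 in males, with 230 reads and 13.3-fold enrichment, and chr18:37925415-37928257 in females, with 323 reads and 11.3-fold enrichment. No male H3K27ac peak lay in the right stretch, and 1 male H3K36me3 island, chr18:37931800-37934799, had 87 reads.

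The central site held all 4 active marks in both sexes. Its H3K4me3 peak, chr18:37802533-37804869 in males and chr18:37802411-37804705 in females, had 562 reads and 40.9-fold enrichment in the male list and 445 reads and 62.1-fold enrichment in the female list. These are the highest H3K4me3 folds of the window in both lists, and fold values were not compared between lists. H3K27ac stood at the same place, chr18:37802754-37804970 in males and chr18:37802888-37804938 in females, with 20.3-fold and 17.1-fold enrichment. An H3K36me3 island began at the same base in both lists and ran over chr18:37796800-37802799 in males and chr18:37796800-37803199 in females, with 403 and 332 reads. Males had an additional H3K36me3 island at chr18:37804400-37806599. H3K4me1 had 3 peaks at the site in males and 2 in females. Which gene carries the site was not determined.

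H3K4me3 was also found in the left and right stretches, at 8 peaks in males and 8 in females. None of them overlapped H3K27ac, which follows from how the stretches were drawn, since they hold 0 male and 1 female H3K27ac peaks. An H3K9me3 island overlapped 7 of the male and 7 of the female peaks, where H3K9me3 covered 32.9% and 30.8% of the left stretch and 70.9% and 59.5% of the right stretch. H3K27me3 islands overlapped 3 of the male and 5 of the female peaks. H3K27me3 covered 24.0% and 9.98% of the left stretch and 90.6% and 84.7% of the right stretch. Both repressive marks were at 3 of 8 in males (37.5%, exact Clopper-Pearson 95% interval 8.52% to 75.5%) and 4 of 8 in females (50%, 15.7% to 84.3%). Such intervals cover counting error only. Over the whole lists H3K9me3 overlapped 5.01% of male and 6.56% of female H3K4me3 peaks, and H3K27me3 overlapped 14.5% and 16.6%. Both repressive marks without H3K27ac were at 1.06% and 1.79%. What part the coverage of the stretches had in these counts was not tested.

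The H3K4me3 peaks of the stretches had lower folds than most of the left block. The stretches were drawn after the peaks had been seen. The central site, with the highest H3K4me3 folds of the window, was set apart from them, so this contrast is in part fixed by the drawing. Their median fold was 5.29 in the male list and 8.34 in the female list, against 19.2 and 44.2 in the left block. Single folds ran from 3.99 to 9.68 in the male list and from 6.35 to 19.0 in the female list, against 5.58 to 34.9 and 18.8 to 59.8 in the left block. The false discovery rate that the authors' peak caller gave was above 5% for 6 of 8 male and 4 of 8 female peaks, against 25.5% and 25.9% of the whole lists. With the better-scoring 75% of the list alone, 10 of the 18 male H3K4me3 peaks of the window were left. The 2 peaks with the most reads in each list were shared by the sexes and lay in the right stretch. One, at chr18:37925437-37927025 in males and chr18:37925416-37927044 in females, had 92 and 74 reads and lay wholly in H3K27me3 and H3K9me3 islands in both lists. The other, at chr18:37965289-37967504 in males and chr18:37965434-37968034 in females, had 229 and 205 reads and lay wholly in H3K27me3 islands. Both places carried H3K4me1 as well.

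The remaining H3K4me3 peaks of the stretches were small. A peak in the left stretch was shared by the sexes, chr18:37692869-37693596 in males and chr18:37693003-37693690 in females, with 33 and 37 reads and wholly in H3K9me3. The control library had 15.1 reads per kb over the male peak and 11.6 over the female peak. Males had further peaks at chr18:37061701-37062800, chr18:37064489-37065308, chr18:37069738-37070263, chr18:37778263-37779308 and chr18:37834321-37835034, with 25 to 53 reads each. Females had further peaks at chr18:37681185-37681766, chr18:37772238-37772702, chr18:37815146-37815860, chr18:37853744-37854506 and chr18:37927411-37928256, with 18 to 42 reads each. None of these 5 male peaks overlapped a female H3K4me3 peak, and none of the 5 female peaks overlapped a male one. Over the whole lists 8.96% of male and 18.4% of female H3K4me3 peaks had no partner. The lone H3K27ac peak of the stretches was in the female list, chr18:37984437-37985728, with 4.14-fold enrichment, a false discovery rate of 11.3% and its whole length in H3K27me3.

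**Figure D3:**
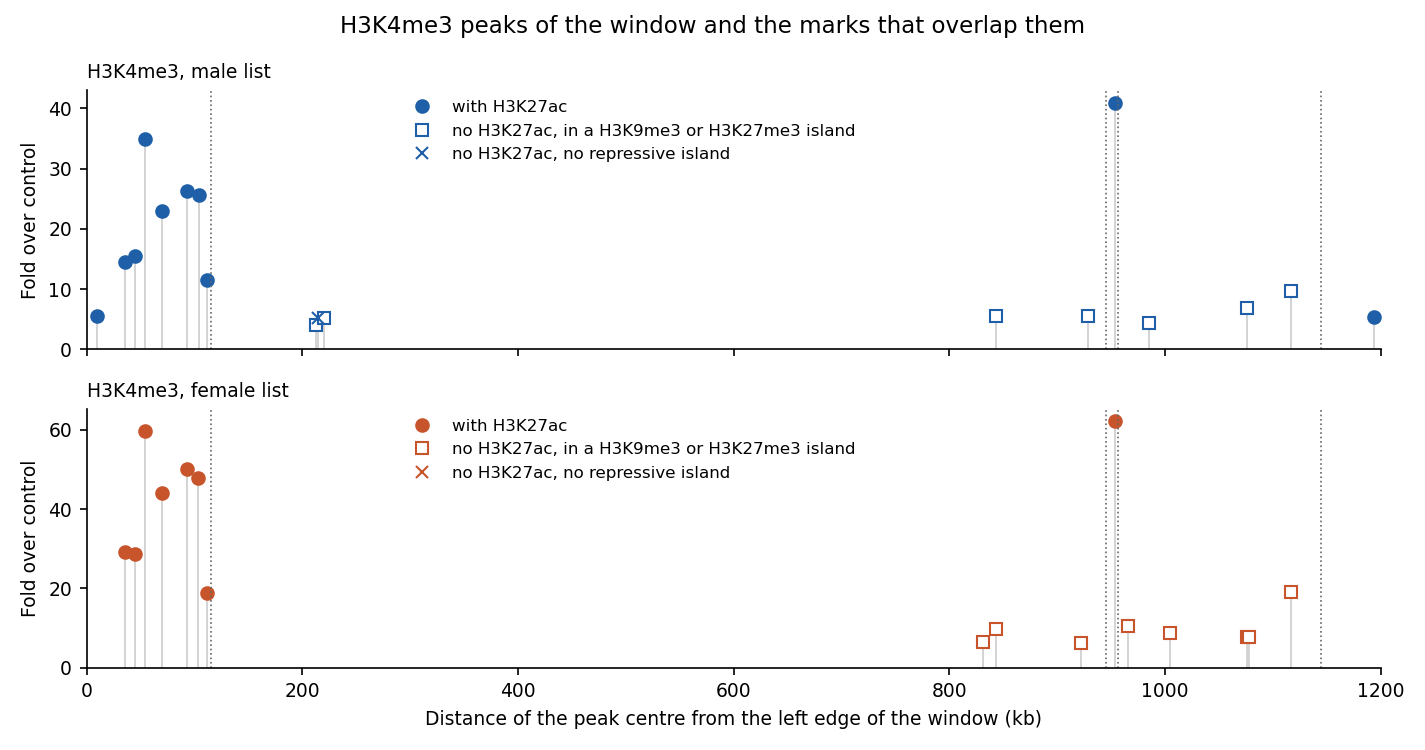
Fold enrichment over control of each H3K4me3 peak (vertical axis, from 0) against the distance of its centre from the left edge of the window (kb), male list above and female list below, with scales that differ. Filled circles overlap H3K27ac, open squares do not and lie in a repressive island, and crosses have neither. All peaks of the left block and the central site are filled, and all 8 female peaks of the stretches and 7 of the 8 male ones are open squares.

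The repressive marks were arranged in zones. In the right stretch H3K27me3 covered 90.6% in the male list and 84.7% in the female list, and H3K9me3 covered 70.9% and 59.5%. The bases with both marks came to 134 kb in males, which is 100% of the H3K9me3 there, and 100 kb in females, which is 89.0% of it. The male list has a continuous H3K27me3 island of 128.8 kb, chr18:37804400-37933199, and the female list has 4 islands inside its bounds. Their H3K27me3 in the right stretch overlapped over 154.4 kb, which is 90.2% of the male and 96.5% of the female length. The widest H3K9me3 islands of the window also lie here, chr18:37826800-37905199 with 78.4 kb and 1040 reads in males and chr18:37797600-37876399 with 78.8 kb and 1228 reads in females. The female island also covers the H3K4me3 peak of the central site over its whole length. At the site H3K9me3 covered 4.80 kb in males and 8.40 kb in females.

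The left stretch was patchier. H3K9me3 covered 32.9% of it in the male list and 30.8% in the female list, and 191.6 kb were covered in both. H3K27me3 covered 24.0% in the male list and 9.98% in the female list, and 49.2 kb were covered in both. Of the H3K9me3 length there 30.9% in males and 3.75% in females lay in H3K27me3. Of the H3K27me3 length 42.3% in males and 11.6% in females lay in H3K9me3. A zone of 210 kb, chr18:37187600-37397599, had no H3K9me3 island in either list. It held 4 male and 3 female H3K27me3 islands that covered 73.6 kb and 67.2 kb. The control library had 3.73 reads per kb in that zone. The reverse was seen at chr18:37432800-37596799, where no H3K27me3 island lay in either list and H3K9me3 covered 32.8 kb in males and 19.2 kb in females.

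Some of the array had no peak at all. No list had a peak in the 104 kb of chr18:37458000-37561999, in the 49.2 kb of chr18:37187600-37236799 or in the 33.6 kb of chr18:37262400-37295999. The control library had 2.88, 1.67 and 3.04 reads per kb in these intervals, all below the 4.48 of the autosomes. The part of read density in the lack of peaks was not tested.

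**Figure D4:**
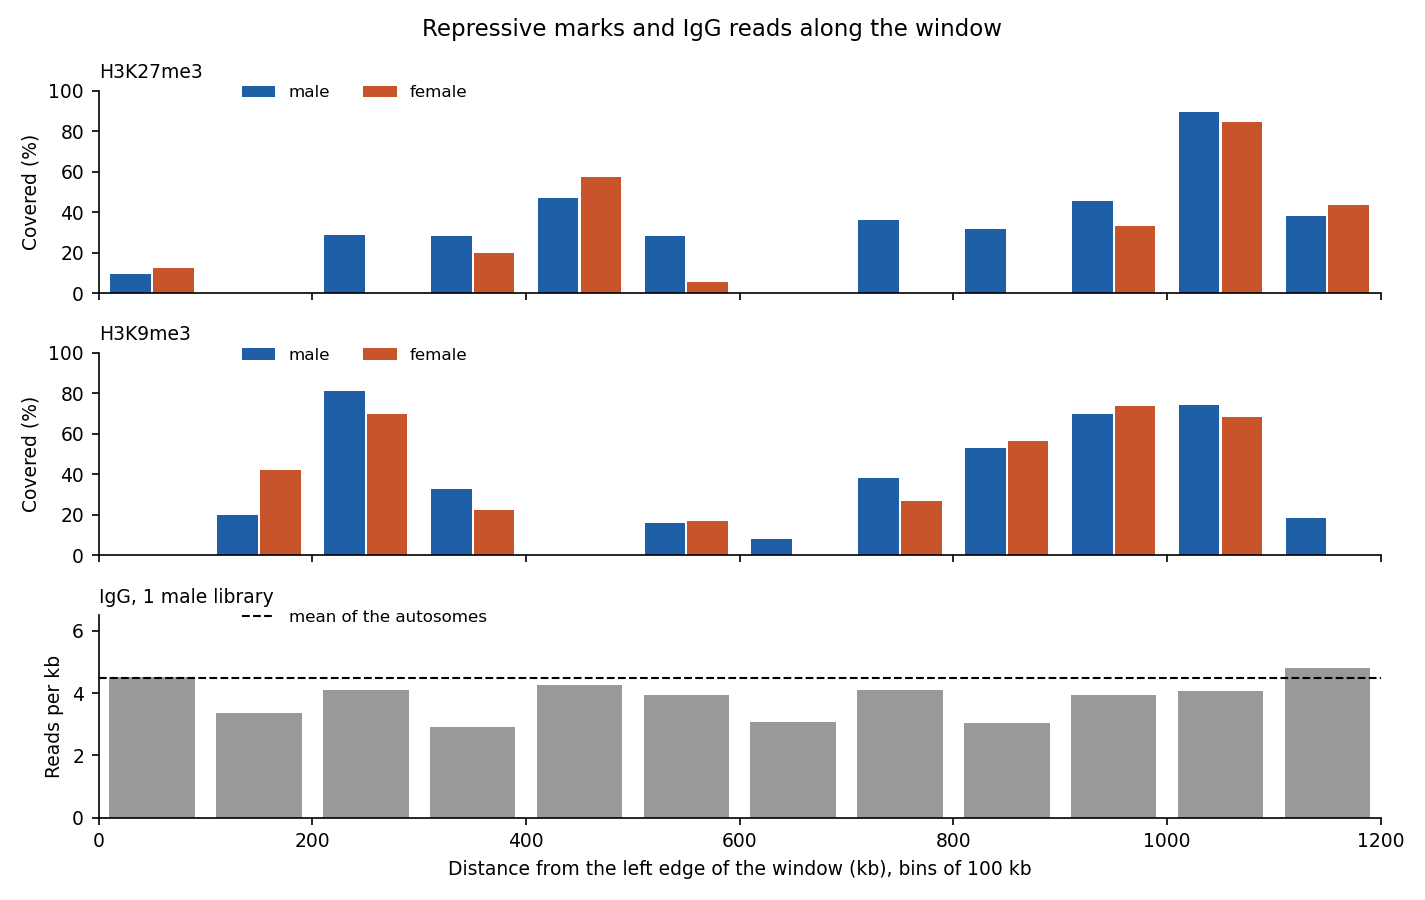
Length covered by H3K27me3 and H3K9me3 islands (%, upper panels, males left of females in each bin) and IgG reads per kb (lowest panel) in bins of 100 kb from the left edge of the window; the dashed line is the mean of the autosomes, 4.48 reads per kb. H3K9me3 reaches 81.2% (male) and 69.6% (female) in the bin from 200 kb, and H3K27me3 reaches 89.2% and 84.4% in the bin from 1000 kb.

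Counted over the whole window, 219.6 kb carried both repressive marks in the male lists and 110.8 kb in the female lists. That was 57.5% of the male and 43.2% of the female H3K27me3 length. Over chromosome 18 the share was 14.4% and 7.10%, and over the autosomes 15.5% and 16.6%. H3K9me3 itself covered 34.3% and 31.4% of the window, 5.04% and 2.75% of chromosome 18 and 7.30% and 9.23% of the autosomes. What part this coverage had in the shares was not tested. Read the other way, 53.3% of the male and 29.4% of the female H3K9me3 length in the window lay in H3K27me3, against 47.2% and 26.6% on chromosome 18 and 49.7% and 43.2% over the autosomes.

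Few peaks of the window differed between the sexes by the authors' rule, an absolute log2 ratio of male over female of at least 1 with a p below 0.001. Of the 207 peaks, 3 were called in the authors' deposited table, all male. For H3K4me1 it was 1 of 26 peaks in the male list, against 8.71% of that list called (8.21% in the male direction), and 0 of 27 in the female list, against 5.13%. For H3K4me3 it was 2 of 18 in the male list, against 4.96% (4.46% in the male direction), and 0 of 16 in the female list, against 2.59%. For H3K27ac 0 of 13 male and 0 of 14 female peaks were called, against 2.6% and 3.63%, and for H3K36me3 0 of 13 and 0 of 9, against 0.592% and 0.457%. For H3K27me3 0 of 13 and 0 of 10 were called, against 0.808% and 0.0615%, and for H3K9me3 0 of 24 and 0 of 24, against 3.45% and 2.3%. With so few members these counts do not separate the window from the background shares.

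The called H3K4me3 peaks are neighbours in the left stretch. The authors' deposited table gives a log2 value of 1.75 (p = 1.3e-06) for chr18:37061701-37062800 and of 2.13 (p = 1.65e-06) for chr18:37064489-37065308. For the next peak, chr18:37069738-37070263, it is 1.67, per the authors' deposited table, with p = 0.00239 and no call. All 3 were weak. They had 53, 36 and 25 reads, folds of 3.99, 5.12 and 5.12 and false discovery rates of 86.8%, 100% and 100%. The control library had 14.5 reads per kb over the first of them. The female H3K36me3 island named above covers the second of them, and its log2 value is -0.33, per the authors' deposited table. The called H3K4me1 peak, chr18:37800603-37801276 at the central site, had 35 reads, a false discovery rate of 23.3% and, per the authors' deposited table, a log2 value of 1.58 (p = 1.46e-05). It would not be called with p below 1e-05.

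The H3K27ac peaks of the window had ratios near 0 in the median. For H3K27ac of the central site the authors' deposited table gives log2 values of -0.02 in the male list and -0.03 in the female list, and for H3K4me3 there 0.33 in both. The medians over all H3K27ac peaks of the window were 0.01 in the male list and 0.00 in the female list, against whole-list medians of -0.01 and -0.12, all of them from the authors' deposited table. The largest H3K4me3 ratio among peaks shared by the sexes was at the right edge of the left block, chr18:36960668-36963248 in males. Its log2 value was 0.94 in the male list and 0.89 in the female list of the authors' deposited table, just short of the rule (p = 7.35e-13 and p = 7.75e-11). The male peak had 350 reads and the female peak 169, raw counts from unlike numbers of libraries over peaks of unlike width. The H3K4me3 peak chr18:36885046-36886781 in males lay on the other side, with log2 values of -0.56 in the male list and -0.54 in the female list of the authors' deposited table. The lone H3K4me1 peak of the left stretch had log2 values of 0.65 (male list) and 0.73 (female list), per the authors' deposited table, and was called in neither.

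Most H3K27me3 ratios in the window were on the male side, and none passed the rule. Of the 13 male islands 12 had a log2 value above 0 in the authors' deposited table, with a median of 0.49, against 71.2% above 0 and a median of 0.11 in the whole list. The female list gave 9 of 10 above 0 and a median of 0.25, against 40.2% above 0 and a median of -0.04 in the whole list, in the authors' deposited table. Chromosome 18 as a whole leaned the same way, with medians of 0.29 in the male list and 0.09 in the female list and 93.2% and 69% of islands above 0 in the authors' deposited table. The flanks did not, with medians of -0.04 in the male list and -0.13 in the female list in the authors' deposited table. In the left and the right stretch the medians were 0.52 and 0.21 in the male list, and 0.33 and 0.19 in the female list, per the authors' deposited table. The ratio of a given island and its presence in a list rest on the same reads, so the counts above are not independent of which islands were listed.

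**Figure D5:**
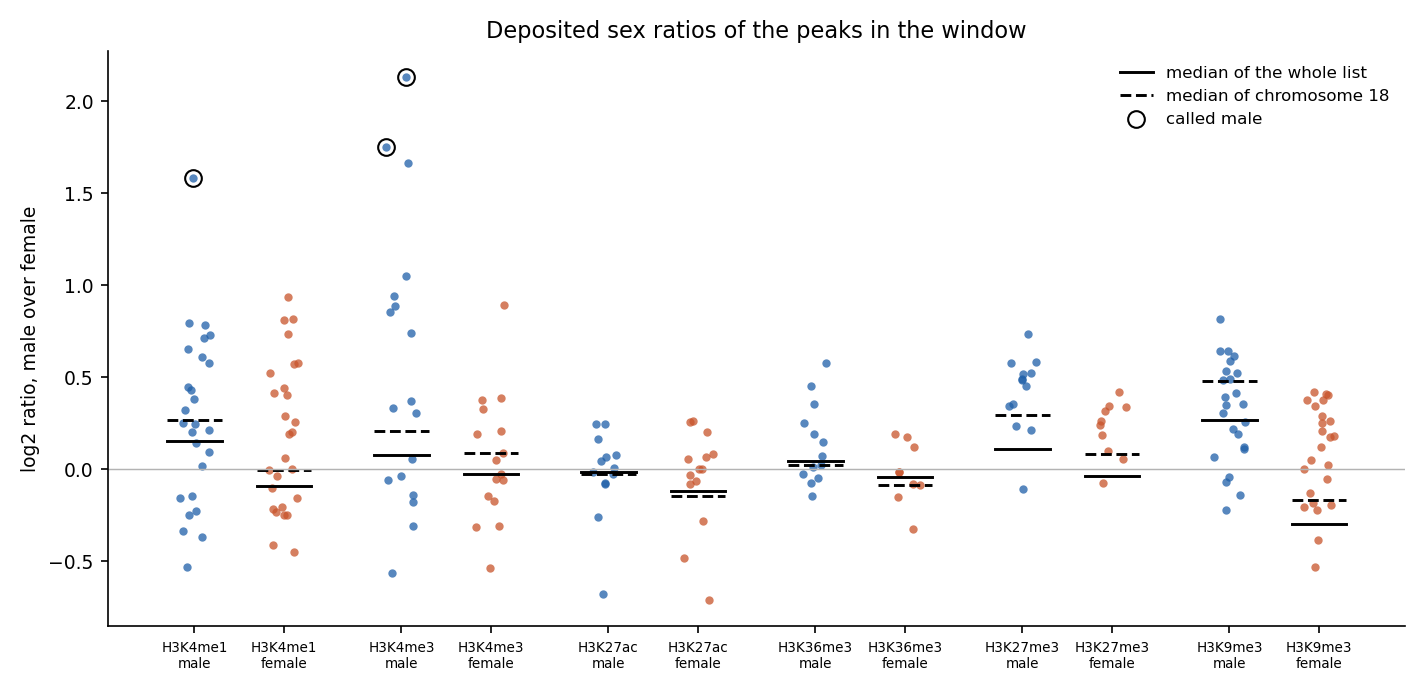
Log2 ratio of male over female signal from the authors' deposited table (vertical axis) for each peak of the window, by mark, with the male list left of the female list. Solid bars are medians of the whole list, dashed bars medians of chromosome 18, and black rings the 3 peaks called male. H3K27me3 points lie above 0 in 12 of 13 (male) and 9 of 10 (female) islands.

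Some H3K27me3 islands were present in the male list alone. A sex-only peak was one with no overlapping peak of the mark in the other sex. For H3K27me3 these were 5 of the 13 male islands (38.5%, Clopper-Pearson 95% interval 13.9% to 68.4%) and 0 of the 10 female islands (upper limit 30.8%), against 43% and 12.6% on chromosome 18 and 19.5% and 21.2% of the whole lists. The interval of the male share includes both the chromosome 18 and the whole-list value. Where sharing needed 50% of the island to be covered, 2 female islands were sex-only. The 5 male islands are chr18:37094800-37123599, chr18:37368400-37381999, chr18:37418000-37432799, chr18:37596800-37615999 and chr18:37633200-37681599. All lie in the left stretch. The last of them, 48.4 kb wide with 1350 reads, is the next widest H3K27me3 island of the male list after that of 128.8 kb, and its log2 value is 0.52 (p = 2.24e-18), per the authors' deposited table. After it comes chr18:37961600-37993599 in the right stretch, with the highest fold of the male islands, 2.54. The widest female islands were chr18:37944800-37993599, chr18:37844400-37888399 and chr18:37891600-37932399, all in the right stretch.

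Chromosome 18, taken as a whole, is short of female H3K27me3 and H3K9me3 islands. It has 574 male and 374 female H3K27me3 islands, and the covered length in males was 1.60 times that in females, the highest of the 19 autosomes, against 0.913 to 1.22 on the others. For H3K9me3 it has 270 male and 206 female islands, and the length was 1.83 times that in females, second to chromosome 19 at 2.08, against a median of 0.789 on the other autosomes. The shortfall was not even along the chromosome. In the left and right flanks H3K27me3 covered 35.1% and 24.3% in males and 34.4% and 26.8% in females. In the window H3K9me3 covered 34.3% in males and 31.4% in females. The sex differences of the window and the imbalance of the chromosome cannot be told apart from the lists.

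Few H3K9me3 islands of the window lacked a partner in the other sex. Sex-only islands were 2 of 24 in males and 2 of 24 in females (8.33% each, Clopper-Pearson 95% interval 1.03% to 27%), against 57.0% and 41.3% of chromosome 18 and 39% and 60.3% of the whole lists. Where sharing needed 50% of the island to be covered, these were 4 in males and 5 in females. The male ones are chr18:37446000-37457999 and chr18:37967200-37985599, and the female ones are chr18:36992800-37010799 and chr18:37730400-37734399. The median log2 value was 0.35 in the male list and 0.15 in the female list of the authors' deposited table. The whole lists had medians of 0.27 and -0.30 and chromosome 18 had 0.48 and -0.17, also in the authors' deposited table. Outside the right stretch, the widest are chr18:37669600-37703999 and chr18:37089600-37123599 in males, and chr18:37674800-37704399 and chr18:37023200-37047599 in females.

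Merging overlapping peaks of both lists gave the shared regions of each mark. H3K27ac had 13 regions in both sexes, 0 in males only and 1 in females only. H3K4me1 had 22 in both, 3 in males only and 3 in females only, and H3K4me3 had 11, 7 and 5. H3K36me3 had 8 in both, 4 in males only and 1 in females only. Sex-only H3K4me3 peaks made up 38.9% in males and 31.2% in females, against 8.96% and 18.4% of the whole lists. Sex-only H3K4me1 peaks made up 11.5% in males and 11.1% in females, against 15.2% and 28.4% of the whole lists. For H3K36me3 the shares were 30.8% in males and 11.1% in females, against 19.2% and 6.99% of the whole lists. H3K27me3 had 7 in both, 5 in males only and 0 in females only, and H3K9me3 had 13, 2 and 2.

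Genes that are known to control the clusters, and relatives of the clustered genes, were looked at where their promoters could be placed. Of 10 regulators 4 were placed: Setdb1 (an H3K9 methyltransferase), Smc3 (a cohesin subunit), Dnmt1 (the maintenance DNA methyltransferase) and Wiz (a zinc finger protein). All 4 had H3K4me3 in both lists. H3K27ac was at 4 in males and at 3 in females, where Setdb1 lacked it, and Wiz had H3K27me3 in the male list. Of 10 protocadherins outside the clusters 2 were placed, Pcdh9 and Pcdh15, and both lay in H3K27me3 in both sexes without H3K27ac, while Pcdh15 had H3K4me3 in the female list. Pcdh15 also had H3K9me3 in the male list, and Pcdh9 had it in neither list. Of 9 other cadherins, Celsr3, Fat1 and Fat4 were placed. Celsr3 and Fat4 had H3K27me3 in both lists, and Fat1 had H3K27ac and no H3K27me3. Fat4 also had H3K4me3 in both lists, and Pcdh9, Celsr3, Fat1 and Fat4 had H3K4me1 in both. Of all placed promoters 44.6% (male) and 45.4% (female) had H3K4me3, and 48.0% and 46.7% had H3K27ac. H3K27me3 was at 28.4% and 30.1% of them, and H3K4me1 at 53.3% and 56.0%. H3K9me3 overlapped the promoters of Fat1 and Fat4 in both lists and that of Celsr3 in the male list, against 7.96% (male) and 7.24% (female) of all placed promoters. With promoters from 250 bp before to 50 bp after the start it overlapped 2 of these 3 in males and 1 of 3 in females. The shares of all placed promoters were then 7.22% and 6.30%.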

How the data were processed

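Each of the 12 lists was 1 pooled peak list, identical byte for byte across its libraries, and sex chromosomes were not analysed here. The submitters' processing notes name build mm9, Bowtie and SICER 1.1. Islands of H3K27me3 and H3K9me3 were called by SICER with 400 bp windows and 2400 bp gaps, and those of H3K36me3 with 200 bp windows and 800 bp gaps, per the labels. The other lists have MACS column names, with the MACS version not given in the sources used here. Read counts per peak were deposited by the authors as raw numbers, in part rounded to 3 significant digits for H3K27ac. Per the file headers, peaks carry a fold over control, and MACS-type peaks also a score on the scale of the -log10 p-value times 10, and a percent false discovery rate. The log2 sex ratio, its p-value and call were deposited by the authors, with normalisation not given in the sources used here. Those p-values compare pooled libraries.

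Peaks, covered length and overlaps of 1 bp or more were counted with Python 3.11.15, numpy 2.4.6 and pandas 2.3.3, and exact intervals with scipy 1.17.1, after tests on simulated data. Promoters (1000 bp either side of the start) were placed by exact matches of at least 25 bases between the 35-base reads of the deposited IgG file and RefSeq promoters, with no coordinates converted. The IgG file holds 11201113 reads. Regions named are the peaks inside the stretches and the central site, called peaks, sex-only repressive islands and the 3 widest islands per list. Members and lists were chosen with earlier results of these data known. Alternatives tried were score, overlap, list length, call thresholds and promoter width.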

Additional observations from a re-analysis of the deposited data

How the results depend on the processing

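Of 151 alternative values, 134 stayed within 1.5 times the value reported and 17 did not. Calls of sex difference depended on the rule. With p below 1e-05 the H3K4me1 male list had 0 called peaks in place of 1. A threshold of 1.5-fold gave 6 in the H3K4me1 male list, 4 in the H3K4me1 female, 1 in the H3K4me3 female, 1 in the H3K27me3 male and 2 in the H3K9me3 male list. Ratios centred on the list median gave 1 in the H3K4me1 female list. Keeping the better-scoring 75% of each list left 10 of the 18 male H3K4me3 peaks. With lists of equal length, sex-only peaks fell to 2 for H3K4me3 in females and 2 for H3K36me3 in males. When a peak counted as shared only if 50% covered, sex-only islands numbered 2 for H3K27me3 in females, 4 for H3K9me3 in males and 5 for H3K9me3 in females. Promoters from 250 bp before to 50 bp after the start gave 0 for H3K27me3 at hepatocyte genes in females, 0 for H3K4me3 at bile duct genes in females and 0 for H3K27me3 at regulators in males. Counting each position and strand once, an alternative chosen after seeing the data, left 2910 of 4614 IgG reads in the window. By construction the stricter p, the better-scoring 75%, the narrower promoters and counting each IgG position once can only lower the counts. The 1.5-fold threshold and the 50% rule for sharing can only raise them. For centred ratios and lists of equal length the cause was not tested. No paired analysis was possible because the libraries of a mark and sex share 1 pooled list, and for the same reason no replicate could be left out.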
